A study of Mus musculus with 8 samples.

Results

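The unfolded protein response was examined through 10 genes of the deposited count table, which lists 35199 genes in all. The genes were chosen by name: the stress sensors Ern1, Ern2, Eif2ak3 and Atf6, the transcription factors Xbp1, Atf4 and Ddit3, and the chaperones Hspa5, Hsp90b1 and Dnajb9. All 10 were found in the table, and 10 of 10 passed the filter on low counts, which left 12849 genes for testing. Expression was measured in tuft cells, rare chemosensory cells of the gut epithelium, sorted as live EPC-high ZSgreen-positive cells. All mice carried the Dclk1-DTR-ZSgreen transgene, in which Dclk1 regulatory sequence on a bacterial artificial chromosome drives the reporter and a diphtheria toxin receptor, so that the gate holds whatever cells drive this transgene. Mice aged 8 to 10 weeks at pump implantation received the muscarinic receptor antagonist scopolamine (0.5 mg per kg per day by osmotic pump, 4 mice, replicates 1 to 4) or sodium chloride (sham, 4 mice, replicates 5 to 8) for 7 days, and each mouse gave 1 library. The comparison asks which genes differ in tuft cells when muscarinic signaling is blocked.

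The unfolded protein response adjusts the protein-folding capacity of the endoplasmic reticulum (ER) to the load of newly made secretory and membrane proteins. IRE1 cuts an intron out of Xbp1 mRNA so that it encodes an active transcription factor, PERK slows translation and favors synthesis of ATF4, and ATF6 is cleaved in the Golgi to release a transcription factor. The response is well known in the secretory cells of the gut, such as Paneth and goblet cells. Counts per gene do not separate spliced from unspliced Xbp1, and they do not record kinase activity, cleavage or translation, so the values below are mRNA levels alone.

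Sequences of 3 promoters are shown because the results turn on these genes: Hspa5 and Hsp90b1 carry the ER stress response element (ERSE) and were among the most abundant members per length, and Eif2ak3 was the single member whose treatment groups did not overlap. Each runs from 250 bases before to 50 after the start of the gene, 5′ to 3′ on the strand of the gene, from RefSeq on GRCm38.p6. Capitals mark ERSE, searched on both strands as CCAAT and CCACG with 9 bases of any kind between them.
Hspa5 promoter, chr2:34771840-34772139, plus strand: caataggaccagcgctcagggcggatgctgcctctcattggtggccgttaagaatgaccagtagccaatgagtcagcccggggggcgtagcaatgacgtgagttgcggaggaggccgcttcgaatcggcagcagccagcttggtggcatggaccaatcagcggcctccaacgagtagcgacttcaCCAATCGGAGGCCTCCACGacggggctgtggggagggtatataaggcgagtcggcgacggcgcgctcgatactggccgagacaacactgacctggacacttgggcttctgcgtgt
Hsp90b1 promoter, chr10:86705395-86705694, minus strand: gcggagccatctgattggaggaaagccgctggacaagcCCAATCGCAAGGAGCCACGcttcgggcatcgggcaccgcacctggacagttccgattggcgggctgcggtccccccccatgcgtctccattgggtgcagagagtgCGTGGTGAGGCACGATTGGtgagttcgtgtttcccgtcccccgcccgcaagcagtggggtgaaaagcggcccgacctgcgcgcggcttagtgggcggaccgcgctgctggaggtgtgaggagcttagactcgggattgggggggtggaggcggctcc
Eif2ak3 promoter, chr6:70844265-70844564, plus strand: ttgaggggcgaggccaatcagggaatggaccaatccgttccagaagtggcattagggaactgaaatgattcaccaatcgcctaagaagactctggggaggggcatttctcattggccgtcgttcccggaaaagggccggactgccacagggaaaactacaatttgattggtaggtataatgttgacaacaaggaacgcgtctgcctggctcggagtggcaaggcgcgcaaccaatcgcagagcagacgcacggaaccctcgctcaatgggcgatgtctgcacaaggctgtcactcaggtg

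Positions are counted from the RefSeq start, which lies 120 bases downstream of the GENCODE start for Hspa5, 65 bases downstream for Hsp90b1 and at the same base for Eif2ak3. Hspa5 held 1 ERSE, 65 to 47 bases before this start. Hsp90b1 held 2, one at 212 to 194 bases on the strand of the gene and one at 107 to 89 bases on the opposite strand, where the capitals read as the reverse complement. Of the 32851 promoters of this length, 39 (0.119%) held ERSE. Promoters were matched for 8 of the 10 members, and those of Ern2 and Atf6 were not analysed here. None of the 8 held ERSE-II (ATTGG and CCACG with 1 base between them, in 0.0365% of all promoters), the UPR element (TGACGTGG, in 0.676%) or the C/EBP-ATF response element (TGATGNAA, in 3.97%). The RefSeq start of Dnajb9 lies 258 bases downstream of its GENCODE start. Its window therefore lies within the GENCODE gene and holds no bases before that start. A match describes letters in the window searched and is not evidence of binding.

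Among 75 other genes of the pathway with a promoter in the table, 7 held ERSE, and their sites are given to show the same fixed ends around different middle bases, each read on the strand that carries the motif and with the 9 middle bases in lower case.
Calr, a calcium-binding chaperone: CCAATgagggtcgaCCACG
Canx, a membrane-bound lectin chaperone: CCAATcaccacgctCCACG
Pdia6, a disulfide isomerase: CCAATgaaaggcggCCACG
Creld2, an ER disulfide isomerase: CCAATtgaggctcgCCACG
Dnajc3, an ER co-chaperone: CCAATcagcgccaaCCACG
Syvn1, the ubiquitin ligase of ER-associated degradation: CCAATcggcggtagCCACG
Derl3, a derlin of ER-associated degradation: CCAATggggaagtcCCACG

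Library totals ran from 14343362 to 41428916 estimated counts, and no scopolamine library reached the depth of the shallowest sham library (20857433 against 25769940), so that effects of depth and of treatment cannot be told apart. A total of 3 counts, taken as the floor, corresponds to 0.0729 to 0.212 CPM (counts scaled to library size with trimmed mean of M-values, TMM, factors), and no member came near it, since the lowest count of any was 48. The cDNA of sham replicates 5 and 7 was made from 200 pg of RNA with 15 amplification cycles, and that of the other libraries from 1000 pg with 10. All 12 tuft cell markers examined lay at or above the 82.6th percentile of the 21805 genes with a count in any library. Some libraries held more RNA of marker genes of other cell types, and which cells it came from was not tested. The summed level of 10 Paneth cell markers was 1483 CPM in scopolamine replicate 4 against 41.0 to 175 CPM in the other 7 libraries, and that of 11 enteroendocrine markers was 1298 CPM in sham replicate 7, 411 to 1202 CPM in the scopolamine libraries and 179 to 278 CPM in the other 3 sham libraries. Apart from Sct, the most abundant of them, the enteroendocrine markers summed to 994 CPM in sham replicate 7, 186 to 939 CPM with scopolamine and 2.89 to 34.3 CPM in the other sham libraries. In bulk libraries fewer cells of a type and less RNA per cell cannot be told apart.

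Per kilobase of the longest coding transcript, the mRNAs of all 3 chaperones and all 3 transcription factors had higher mean levels than those of the 4 sensors. Hsp90b1, which encodes the ER chaperone GRP94, had the highest level at 249 ± 22.1 CPM per kilobase (SD, n = 8 libraries). Hspa5, encoding BiP, the ER chaperone that also binds the sensors, followed at 146 ± 55.7, and Xbp1 at 139 ± 20.5. Hspa5 was above Xbp1 in 4 of 8 libraries, so these neighbours did not differ beyond their spread. Atf4 (57.0 ± 14.2) was below Xbp1 in 8 of 8 libraries. Ddit3, encoding CHOP, stood at 11.9 ± 3.46 and Dnajb9, encoding the co-chaperone ERdj4, at 9.08 ± 1.58, with Ddit3 the higher in 6 of 8 libraries. The sensors were lowest: Atf6 at 4.58 ± 1.53, Ern2 at 4.22 ± 1.38, Eif2ak3 at 1.72 ± 0.906 and Ern1 at 0.933 ± 0.647. Atf6 was above Ern2 in 5 of 8 libraries, Ern2 above Eif2ak3 in 7 and Eif2ak3 above Ern1 in 5, so none of these neighbours was separated in every library. With the union of exons as length, Ddit3 and Dnajb9 exchanged places, as did Atf6 and Ern2, and the level of Ddit3 was 6.17 CPM per kilobase.

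**Figure D1:**
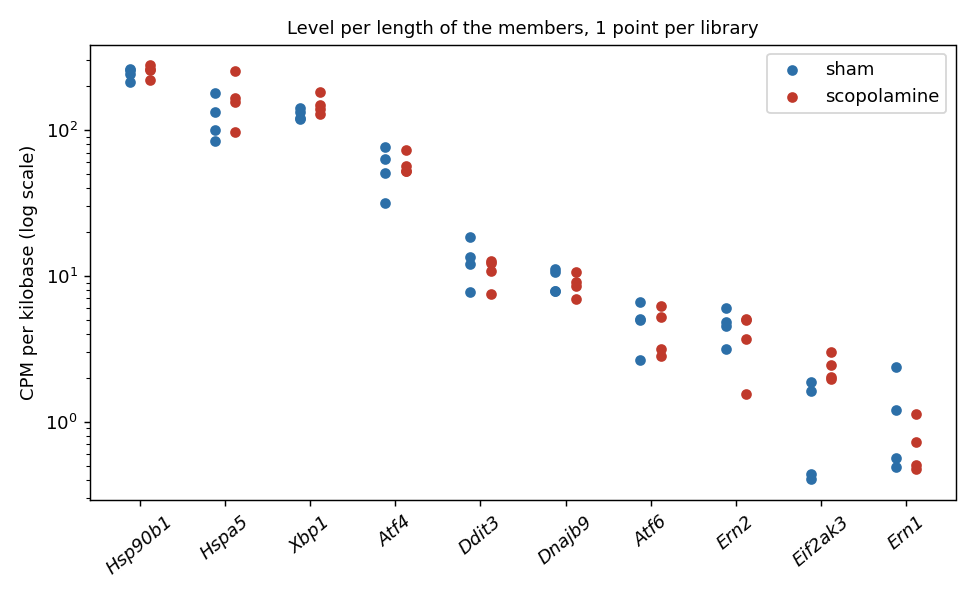
CPM per kilobase of the longest coding transcript (log scale) of each member, with 1 point for each of the 4 sham (blue) and 4 scopolamine (red) libraries. Hsp90b1, at 214 to 277 CPM per kilobase, is above all other members in every library, and the 4 sensors lie at the low end.

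Eif2ak3 encodes PERK, the kinase that slows translation under ER stress (chromosome 6, 70844515 to 70905245, GRCm38). It was measured at 11.1, 9.12, 13.5 and 8.89 CPM in scopolamine replicates 1 to 4 and at 1.82, 7.29, 8.40 and 1.97 CPM in sham replicates 5 to 8. Every scopolamine library was above every sham library, although scopolamine replicate 4 and sham replicate 7 were close, and the sham libraries fell into a pair near 2 CPM and a pair near 8 CPM. Each sham pair held 1 library made from 200 pg. The means were 10.7 ± 2.16 CPM with scopolamine and 4.87 ± 3.47 CPM in sham (SD, n = 4 each), a log2 fold change of 1.13 (standard error 0.62, 95% interval -0.24 to 2.50). The edgeR adjusted p was 0.815. The exact permutation test of the group means (two-sided, 70 assignments) gave p = 0.0286, the smallest that 4 against 4 mice allow and not adjusted for the 10 members tested. With any 1 of the 4 scopolamine replicates left out it was 0.114 or 0.143 (exact permutation test, 35 assignments), and with any 1 sham replicate left out 0.0286. Groups did not overlap for 3.88% of all genes tested, 1.92% with scopolamine higher, against 1 of 10 members. Eif2ak3 counts ran from 48 to 339, and the gene overlaps a snoRNA gene on its strand and an unverified transcript on the opposite strand, whose reads could be shared.

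Ern1 encodes IRE1α, the sensor that splices Xbp1 mRNA (chromosome 11, 106394650 to 106487852). Its levels were 3.51, 7.81, 5.08 and 3.31 CPM with scopolamine and 3.90, 3.40, 16.4 and 8.39 CPM in sham. Sham replicate 7 was the highest, and the other 3 sham libraries lay within or near the scopolamine range. The log2 fold change was -0.70 (standard error 0.65, 95% interval -2.15 to 0.74, edgeR adjusted p = 0.890), and without sham replicate 7 it was -0.087.

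Ern2 encodes IRE1β, the paralog found in mucus-secreting epithelia (chromosome 7, 122169893 to 122186207). It was at 14.5, 10.8, 4.51 and 14.7 CPM with scopolamine and at 13.2, 14.1, 17.5 and 9.16 CPM in sham. The groups overlapped, with scopolamine replicate 3 the lowest. The log2 fold change of -0.28 (standard error 0.45, 95% interval -1.28 to 0.73, edgeR adjusted p = 0.949) became -0.019 without that library. Beside it, the summed level of 8 goblet cell markers was 3544.5, 2123, 683 and 1109 CPM with scopolamine and 1378, 353, 1179 and 355 CPM in sham. Scopolamine replicate 3 was the lowest scopolamine library for both, while sham replicate 6 had the lowest goblet sum of all but 14.1 CPM of Ern2. The part of goblet cells in the Ern2 level was not tested.

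Atf6 encodes the sensor that is itself the precursor of a transcription factor (chromosome 1, 170704674 to 170867771). It was measured at 37.8, 20.5, 44.8 and 22.8 CPM with scopolamine and at 36.5, 36.2, 47.9 and 19.2 CPM in sham. Both groups spanned about the same range. The log2 fold change was -0.15 (standard error 0.34, 95% interval -0.91 to 0.61, edgeR adjusted p = 0.975), and its sign changed to 0.17 without the sham libraries made from 200 pg.

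Xbp1 encodes the transcription factor activated by IRE1 splicing, and is needed for the secretory machinery of Paneth and plasma cells (chromosome 11, 5520659 to 5525893). Its levels were 317, 296, 276 and 390 CPM with scopolamine and 252, 299, 281 and 258 CPM in sham. Scopolamine replicate 4 was the highest and the other 3 scopolamine libraries were within or just above the sham range. The means of 319.6 ± 49.9 and 273 ± 22.0 CPM (SD, n = 4 each) gave a log2 fold change of 0.23 (standard error 0.15, 95% interval -0.094 to 0.55, edgeR adjusted p = 0.839). Without scopolamine replicate 4 it was 0.11. That library also had the highest Paneth marker sum, and the part of Paneth cells in the Xbp1 level was not tested.

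Atf4 encodes the transcription factor translated when PERK is active (chromosome 15, 80255184 to 80257541). It was at 90.0, 125, 90.2 and 98.1 CPM with scopolamine and at 54.1, 87.4, 132 and 109 CPM in sham. The sham range enclosed the scopolamine range. A log2 fold change of 0.076 (standard error 0.26, 95% interval -0.49 to 0.64, edgeR adjusted p = 0.985) was found, which was -0.13 without sham replicate 5, the lowest library.

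Ddit3, a target of ATF4 that encodes the pro-apoptotic factor CHOP, lies at chromosome 10, 127290774 to 127296288. Its levels were 11.2, 9.59, 6.70 and 10.9 CPM with scopolamine and 10.8, 6.93, 11.9 and 16.5 CPM in sham. The groups overlapped from 6.93 to 11.2 CPM, and sham replicate 8 was the highest. The log2 fold change was -0.26 (standard error 0.43, 95% interval -1.21 to 0.68, edgeR adjusted p = 0.949), and -0.041 without sham replicate 8. The annotation holds 2 overlapping protein-coding gene models named Ddit3 here, which the table does not separate. Ddit3 also overlaps Mars on the opposite strand, and the use of strand in counting is not given in the sources used here, so its values are uncertain.

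Hspa5 (chromosome 2, 34771970 to 34777547) had the widest spread of the chaperones. It was at 355, 609, 568 and 930 CPM with scopolamine and at 660, 367, 484 and 308 CPM in sham. Scopolamine replicate 4 was highest and sham replicate 8 lowest, but scopolamine replicate 1 lay below 3 sham libraries and the groups overlapped. The means were 615 ± 237 and 455 ± 155 CPM (SD, n = 4 each), a log2 fold change of 0.44 (standard error 0.30, 95% interval -0.23 to 1.10, edgeR adjusted p = 0.852). This value turned on which libraries were kept, being 0.16 without scopolamine replicate 4 and 0.84 without the sham libraries made from 200 pg. Of 12839 other genes past the filter, Atg2a and the antimicrobial lectin gene Reg3b had the patterns most like Hspa5 over the 8 libraries. Pearson r of log2 CPM was 0.97 and Spearman rho 0.93 for both, and Reg3b ran from 235 to 7397.5 CPM. Without the 2 libraries farthest from the median of Hspa5, r was 0.96 for Atg2a and 0.92 for Reg3b. Both were picked as the highest of 12839 values, so the likeness is a description and not a test.

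Hsp90b1 (chromosome 10, 86690209 to 86705509) was the steadiest member over the 8 libraries. It was measured at 732, 618, 739 and 784 CPM with scopolamine and at 734, 726, 688 and 605 CPM in sham. Its highest library was 1.30 times its lowest, and the coefficient of variation was 9.82% with scopolamine and 8.60% in sham. Within sham that of Xbp1 was lower, at 8.05%. The log2 fold change was 0.062 (standard error 0.13, 95% interval -0.23 to 0.35, edgeR adjusted p = 0.971), an interval that spans 0.855-fold to 1.27-fold. With 1 library left out it ran from 0.0042 (sham replicate 8) to 0.12 (scopolamine replicate 2). The ratio of Hspa5 over Hsp90b1 ran from 0.485 in scopolamine replicate 1 to 1.19 in scopolamine replicate 4. The part of ERSE in either level was not tested.

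Dnajb9, whose product ERdj4 is a co-chaperone of BiP and a well-known target of spliced XBP1, lies at chromosome 12, 44205559 to 44210326. It was at 20.9, 16.9, 22.5 and 26.1 CPM with scopolamine and at 19.4, 26.1, 19.3 and 27.6 CPM in sham. The ranges overlapped from 19.3 to 26.1 CPM. The log2 fold change was -0.096 (standard error 0.27, 95% interval -0.70 to 0.51, edgeR adjusted p = 0.979). It was -0.0005 without sham replicate 8, -0.21 without scopolamine replicate 4 and -0.34 without the 200 pg libraries. Among the libraries then left, scopolamine replicate 4 (26.09 CPM) and sham replicate 6 (26.11 CPM) were nearly equal.

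**Figure D2:**
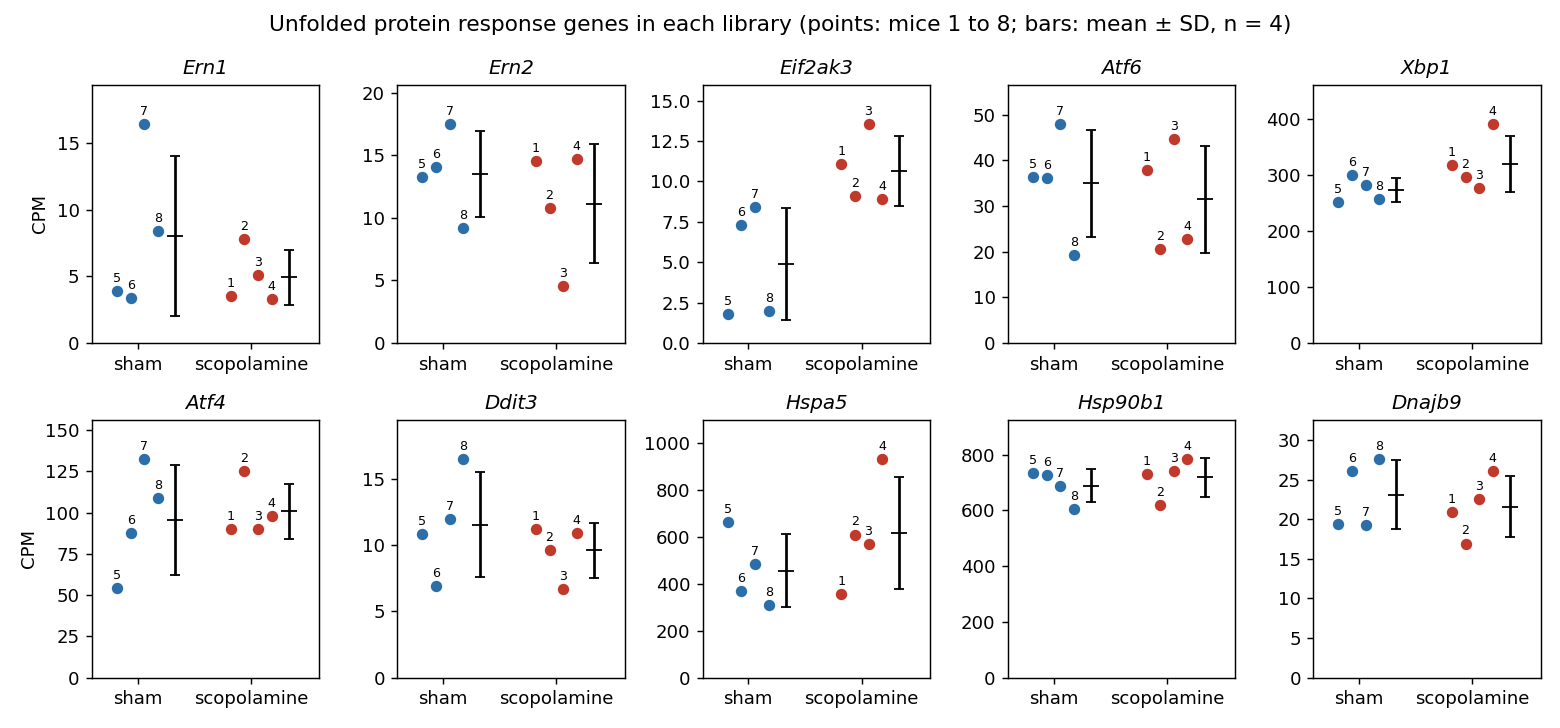
CPM of each member in each library, with points numbered by replicate (sham 5 to 8 in blue, scopolamine 1 to 4 in red) and bars showing the mean ± SD of 4 mice. Eif2ak3 alone has no overlap between the groups, and scopolamine replicate 4 has the highest Xbp1, Hspa5 and Hsp90b1.

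Across the members, scopolamine treatment gave no common direction: 5 of 10 had a log2 fold change above 0 and 5 below, beside 49.1% above 0 of all genes tested. Their median log2 fold change was -0.017, against -0.011 for all 12849 genes. At an adjusted p under 0.1, edgeR called 0 of 10 members, with 0% of all genes called. At an unadjusted p under 0.05 it counted 0 members and 5.99% of all genes. In 8 of 17 alternative settings 1 member had an unadjusted p under 0.05, which was Eif2ak3 with DESeq2, with limma-voom and without sham replicate 7, Xbp1 with mouse ID series as a covariate, and Hspa5 in the other 4. Between 5.3% and 9.1% of all genes had such a p in these 8 fits. DESeq2 called 0 members and 1.31% of the 14462 genes it adjusted (0.982% with scopolamine higher, 0.332% lower), and limma-voom called 0 members and 0 genes. By DESeq2 the adjusted p of Eif2ak3 was 0.464. The 95% intervals bound what these 8 libraries leave possible, being narrowest for Hsp90b1 (0.855-fold to 1.27-fold) and widest for Ern1 (0.225-fold to 1.67-fold) and Eif2ak3 (0.845-fold to 5.65-fold).

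The highest values were not spread evenly over the mice. Sham replicate 7, made from 200 pg, had the highest level of Ern1, Ern2, Atf4 and Atf6, and scopolamine replicate 4 that of Xbp1, Hspa5 and Hsp90b1. Sham replicate 5, also made from 200 pg, had the lowest Xbp1, Atf4 and Eif2ak3 and no highest value. Sham replicate 8 had the highest Ddit3 and Dnajb9 and the lowest Atf6, Hspa5 and Hsp90b1. The part of RNA input or of other cell types in these levels was not tested.

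**Figure D3:**
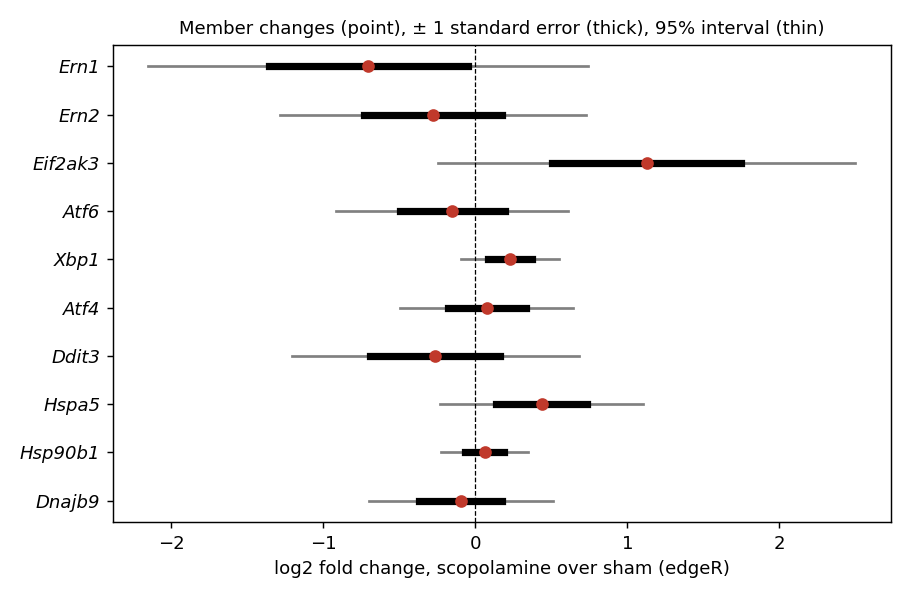
Log2 fold change of each member, scopolamine over sham (edgeR), as a point with ± 1 standard error (thick line) and the 95% interval (thin line). All 10 intervals include 0, and that of Hsp90b1, from -0.23 to 0.35, is the narrowest.

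The wider pathway was described through 97 other genes in 4 lists, of which 93 passed the filter. Of these, 61 had a log2 fold change above 0 and 32 below, and edgeR called 0 of 93. Unadjusted p-values under 0.05 were found for 8 genes with scopolamine higher, beside 3.33% of all genes tested, and for 1 gene with scopolamine lower, beside 2.66%.

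Among ER chaperones and folding enzymes, 15 of 21 genes were above 0 and 6 below, with a median of 0.10. Of the 21 genes, 3 had an unadjusted p under 0.05, beside 5.99% of all genes tested. P4hb, the protein disulfide isomerase, was at 539, 984, 603 and 1044 CPM with scopolamine and at 538, 423, 492 and 298 CPM in sham. Its groups touched without overlapping (log2 fold change 0.86, standard error 0.25, edgeR adjusted p = 0.812). Groups did not overlap, with scopolamine higher, for 2 of the 21 genes (P4hb and Canx), beside 1.92% of all genes tested. Txndc11, a thioredoxin-domain protein of the ER, averaged 41.5 ± 12.4 and 20.3 ± 4.85 CPM (SD, n = 4 each), a log2 fold change of 1.03 with an adjusted p of 0.812 by edgeR and 0.0709 by DESeq2. Calr averaged 656 ± 91.5 and 655 ± 53.5 CPM (SD, n = 4 each). Fkbp2, a prolyl isomerase, had the smallest p of those below 0, at a log2 fold change of -0.27 (-0.14 without scopolamine replicate 3).

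Of the genes for ER translocation and ER-associated degradation, 16 of 27 were above 0 and 11 below (median 0.14). Sec61a1, the channel subunit of the translocon, averaged 318 ± 80.2 CPM with scopolamine and 191 ± 34.9 CPM in sham (SD, n = 4 each), a log2 fold change of 0.74 (edgeR adjusted p = 0.812). Sec11c, a catalytic subunit of the signal peptidase, went the other way, at 429, 312, 388 and 313 CPM with scopolamine and 477, 486, 520 and 530 CPM in sham. Its groups did not overlap, as was so with scopolamine lower for 1.96% of all genes tested, and its log2 fold change of -0.48 had an adjusted p of 0.812 by edgeR and 0.0912 by DESeq2. Vcp, the ATPase that extracts proteins for degradation, was at a log2 fold change of 0.31.

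For targets of the PERK, ATF4 and CHOP arm, 19 of 25 genes were above 0 and 6 below (median 0.21). Aldh18a1, an enzyme of proline synthesis, averaged 111 ± 39.9 and 57.2 ± 16.6 CPM (SD, n = 4 each), a log2 fold change of 0.96 (edgeR adjusted p = 0.812). The tRNA synthetase genes Sars and Nars, the most abundant of the list, were at log2 fold changes of 0.20 and 0.27, and Eif4ebp1, a repressor of cap-dependent translation, at -0.46. Left-out libraries moved these values, to 0.082 for Sars without scopolamine replicate 2, 0.037 for Nars without scopolamine replicate 4 and -0.28 for Eif4ebp1 without sham replicate 7. Nupr1, a stress-induced chromatin protein, did not pass the filter but was called by DESeq2 (adjusted p = 0.0351), with 64, 34, 3 and 14 counts with scopolamine and 1, 0, 3 and 4 counts in sham. Scopolamine replicate 3 was at the floor of 3 counts, and no sham library had more than 4. With no filter on low counts, edgeR gave Nupr1 an adjusted p of 0.587.

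Among sensor relatives, proteases and regulators, 11 of 20 genes were above 0 and 9 below (median 0.018), with no unadjusted p under 0.05 in either direction. Tmbim6 and Bax, an inhibitor and a promoter of cell death that both act on IRE1, were at log2 fold changes of 0.18 and -0.26. Creb3, a membrane-bound transcription factor related to ATF6 in its activation, was at 0.29. Without sham replicate 5 Tmbim6 was at 0.11 and Creb3 at 0.18. Bax was at -0.14 without sham replicate 8 and at -0.42 without scopolamine replicate 4. Without the sham libraries made from 200 pg, Tmbim6 was at 0.046, Creb3 at 0.17 and Bax at -0.47. Wfs1, the ER protein wolframin, was at -1.23 with an unadjusted p of 0.0784 and an adjusted p of 0.812 by edgeR.

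**Figure D4:**
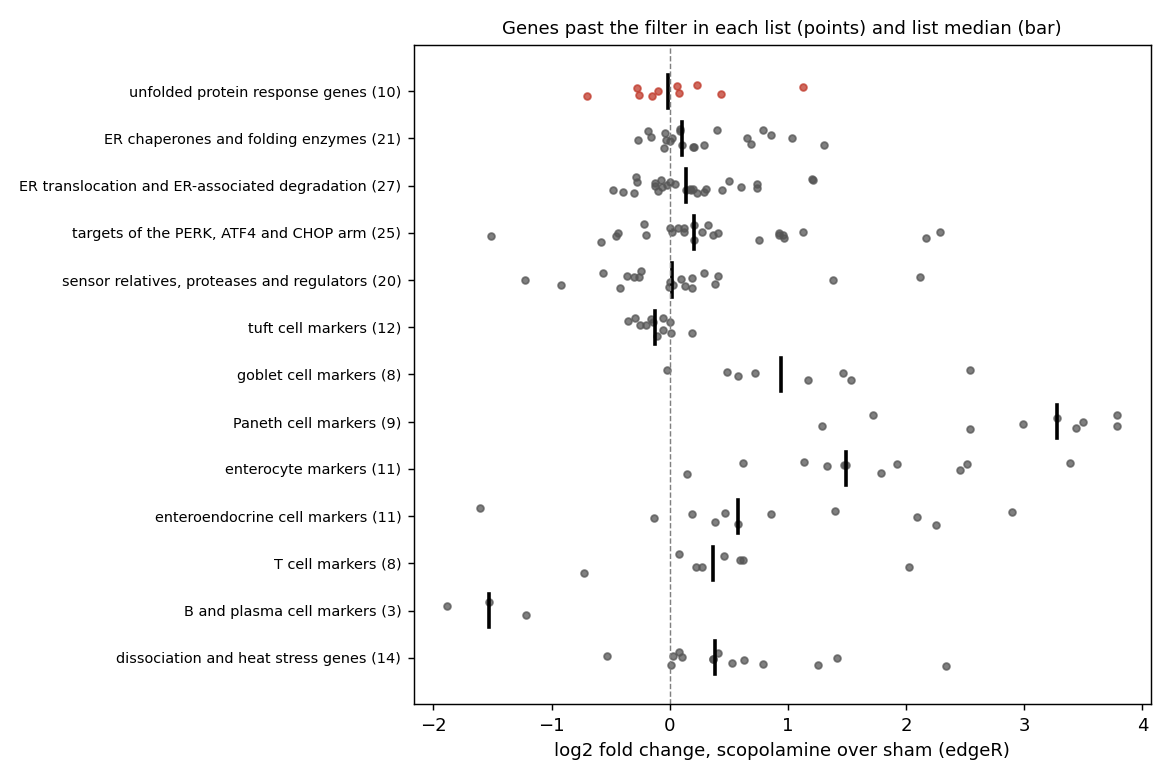
Log2 fold change, scopolamine over sham (edgeR), of each gene past the filter (points) in each list, with its median (bar) and the number of genes in brackets. The members have a median of -0.017, the 4 other lists of the pathway have medians from 0.018 to 0.21, and Paneth and enterocyte markers lie further to the right.

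Of the 9 members and listed pathway genes with ERSE in the promoter, 8 passed the filter, 6 with a log2 fold change above 0 and 2 below. Canx was highest at 0.69 and Creld2 lowest at -0.16, and edgeR called 0 of them. Canx was also the single one of the 8 with an unadjusted p under 0.05 and scopolamine higher, beside 3.33% of all genes tested.

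Markers of other cell types are given beside these counts. With all 8 libraries edgeR called 0 of them, against 2 enterocyte markers and 1 stress gene with DESeq2. Enterocyte markers were above 0 for 11 of 11 genes (median 1.49), Paneth cell markers for 9 of 9 past the filter (3.28, and 7 of 9 with a median of 0.30 without scopolamine replicate 4), goblet cell markers for 7 of 8 (0.94), enteroendocrine markers for 9 of 11 (0.58) and T cell markers for 7 of 8 (0.37). B and plasma cell markers were below 0 for 3 of 3 past the filter (-1.53). Dissociation and heat stress genes were above 0 for 13 of 14 (median 0.39), and tuft cell markers for 2 of 12 (-0.13). Without scopolamine replicate 4 the tuft cell markers numbered 5 above 0 and 7 below (median -0.049), and the medians were 0.36 for enteroendocrine and 0.57 for T cell markers. Summed enterocyte markers ran from 3269 to 6661 CPM with scopolamine and from 2588 to 6504 CPM in sham, and summed stress genes from 3128 to 4542 CPM and from 3063 to 3932 CPM. T cell markers summed to 51.8 to 202 CPM with scopolamine and 54.4 to 267 CPM in sham, but in sham replicates 6 to 8 most of this was Ptprc, a gene of all leukocytes. The other 8 T cell markers summed to 20.1 to 109 CPM with scopolamine, 146 CPM in sham replicate 5 and 0.705 to 3.42 CPM in sham replicates 6 to 8. The plasma cell markers Tnfrsf17 and Mzb1 were at 0 in 8 and 7 of the 8 libraries, and the 7 B and plasma cell markers summed to 2.47 to 11.1 CPM with scopolamine and 11.9 to 22.6 CPM in sham. Most of the highest sums was Cd79b, which overlapped between the groups, and the other 6 summed to 0.401 to 5.19 CPM with scopolamine and 0.388 to 7.59 CPM in sham. Their part in the levels of the pathway genes was not tested. Without scopolamine replicate 4, the library with the highest Paneth sum, chaperones and folding enzymes above and below 0 numbered 12 and 9, translocation and degradation genes 15 and 12 (median 0.026, with 2 rather than 4 genes at an unadjusted p under 0.05, beside 4.18% rather than 5.99% of all genes), targets of the PERK arm 16 and 9, and sensor relatives 9 and 11. The members remained at 5 above and 5 below without that library. With both 200 pg sham libraries removed, marker medians were 2.39 for goblet, 3.15 for enterocyte, 4.56 for Paneth, 6.62 for enteroendocrine and 5.22 for T cell markers. Unadjusted p-values under 0.05 then counted 6 of 8, 10 of 11, 4 of 9, 9 of 11 and 6 of 8 of their genes, beside 8.63% of all genes in that fit. Of the dissociation and heat stress genes 6 of 16 had such a p (median 0.58). There edgeR called 1 of 11 enterocyte markers, beside 9 of 13869 genes. In the same fit, chaperones and folding enzymes above and below 0 numbered 17 and 4, translocation and degradation genes 18 and 9, targets of the PERK arm 16 and 11, and sensor relatives 10 and 11. Of these 96 pathway genes 18 had an unadjusted p under 0.05 and edgeR called 0, and the members had 6 above 0 and 4 below, with a median of 0.049.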

How the data were processed

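RNA of sorted cells was amplified to cDNA and sequenced, 1 library per mouse. The authors assigned reads to GRCm38 transcripts with kallisto 0.44.0, after bcl2fastq 2.20, and deposited the estimated counts of each gene, not normalized. All values are whole numbers, so rounding changed 0 of them. The annotation release and use of strand are not given in the sources used here, and kallisto divides reads between similar transcripts. Coordinates and transcript lengths came from the GENCODE M21 annotation.

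Groups came from the treatment labels. In R 4.3.3, the main test was the quasi-likelihood test of edgeR 4.0.16 after filterByExpr and TMM, at a Benjamini-Hochberg adjusted p under 0.1, fitted on all genes past the filter and tested on simulated data. Exact permutation tests used log2(CPM + 0.5). Other fits used limma-voom (limma 3.58.1), DESeq2 1.42.0, other size factors, filters and threshold, RNA input, amplification cycles, mouse ID series and each replicate left out. The series is the letter in the mouse ID (M for scopolamine replicates 1 to 3 and sham replicate 5, N otherwise).

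The members and lists were chosen with earlier results of these data known. Named from each list were the 2 most abundant genes, the gene with the smallest p in each direction, and genes with an adjusted p under 0.1. For Xbp1, Ern2, Ddit3 and Hspa5, the 2 genes with the highest Pearson r of log2(CPM + 0.5) were also taken. Canx and Creld2 were named after their values were seen.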

Additional observations from a re-analysis of the deposited data

How the results depend on the processing

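No member passed the threshold under any of 17 alternative settings (smallest adjusted p 0.464), nor at an adjusted p under 0.05. Of the 170 member values, 163 kept their direction and 7 reversed. Atf6 became 0.17 without the sham libraries made from 200 pg and 0.18 with amplification cycles as a covariate, and Dnajb9 0.076 with mouse ID series as a covariate. With each replicate left out in turn, Atf6 ran from -0.37 to 0.038 and Atf4 from -0.13 to 0.27, Atf4 reversing without scopolamine replicate 2 and without sham replicate 5, and Atf6 without scopolamine replicate 2 and without sham replicate 7. The cause was not tested.

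Over all genes, 0 calls became 190 with DESeq2, 9 without the libraries made from 200 pg and 5 with amplification cycles as a covariate, and ran from 0 to 2 with each replicate left out. In the 4 pathway lists, DESeq2 called 3 of the 97 genes listed, beside 1.31% of the 14462 genes it adjusted. Nupr1, among these 3, did not pass the filter on low counts. The number of members with a permutation p under 0.05 was 1, and 0 without the libraries made from 200 pg, where the smallest p that 4 against 2 mice allow is 0.0667. It ran from 0 to 1 with each replicate left out, being 0 without any 1 of the scopolamine replicates. No paired analysis was run, because the labels used here do not pair scopolamine mice with sham mice.

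Depth was lower in every scopolamine library, and counting error (coefficient of variation) was at most 14.4% for any member in any library.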

Other observations

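For 3 further members, the genes whose pattern over the 8 libraries was most like theirs were ranked among 12839 genes past the filter, as a description over libraries that share depth, RNA input and cell makeup. Ddit3 was most like Selenos (Pearson r 0.98, Spearman rho 0.93), which encodes a selenoprotein of ER-associated degradation and ran only from 143 to 175 CPM, and Tmem171 (0.96 and 0.93). Without the 2 libraries farthest from the median of Ddit3, r was 0.935 for Selenos and 0.87 for Tmem171. Xbp1 was most like Zfp36l1, an mRNA decay factor (0.93 and 0.90), and Pdia2, a disulfide isomerase (0.93 and 0.91), which reached 7.52 CPM and had no count in at least 1 library. Ern2 was most like Herc4 (0.97 and 0.93) and Nudt21 (0.97 and 0.98), with r of 0.82 and 0.81 without its 2 farthest libraries.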
